A study of Mus musculus with 9 samples.

Results

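The solute carriers of ions and nutrients are membrane proteins that move salts, acid and base equivalents, sugars, amino acids, short-chain fatty acids, zinc and organic ions across cell membranes. The genes described here were those whose array rows carried exactly 1 platform gene symbol from the mouse families Slc4, Slc5, Slc6, Slc7, Slc9, Slc12, Slc16, Slc20, Slc22, Slc26, Slc30 or Slc39. This gave 244 rows (Affymetrix probe sets) for 138 genes, out of 34945 rows and 18193 genes with 1 symbol and 45037 rows tested in all. Of the 138 genes, 68 had 1 row, 48 had 2 rows, 10 had 3 and 12 had 4 or more. The rule used gene names only, although the families were picked with earlier results of these arrays known.

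Whole colons of mice of mixed C57BL/6 and Balb/c background were profiled on 9 arrays. The 5 mutant arrays came from Rosa26-CreERT2-Ptch1fl/fl animals, in which tamoxifen-activated Cre removes exons 8 and 9 of Ptch1, the receptor that holds Hedgehog signalling off. The 4 wildtype arrays came from Rosa26-CreERT2-Ptch1+/+ animals, so that Cre and tamoxifen were shared by both groups. Both groups were given 1 mg tamoxifen daily for 5 days, and colons were collected at day 12. Cre is driven from the Rosa26 locus, which is active in most tissues, so the deletion was designed to be body-wide and not aimed at any cell type of the colon. Recombination was not measured here. The labels give no ages. They also do not state that every sample was its own animal, and the p-values cover only the scatter among these 9 samples, some of which may be technical.

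In the colon, surface epithelial cells take up sodium chloride by pairing apical sodium-proton exchangers of the Slc9 family with chloride-bicarbonate exchangers of the Slc26 family. Short-chain fatty acids made by bacteria enter through proton-linked and sodium-linked monocarboxylate carriers of the Slc16 and Slc5 families. Amino acid carriers of the Slc6 and Slc7 families and zinc carriers of the Slc30 and Slc39 families serve the nutrition and metal balance of the cells themselves.

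In the deposited table, the name on a row carried the strength of the difference between mutant and wildtype arrays better than it carried the row's level or direction, and this set what could be reported. Names and values may therefore be misaligned, to an extent that was not tested, and every value given under a gene name carries that doubt. Among the 70 carrier genes with at least 2 rows there were 158 pairs of rows of the same gene. The strength of the difference, taken as the rank of the absolute moderated t, correlated between the rows of a pair (Spearman's rho = 0.33), whereas the mean log2 level hardly did (rho = 0.0772). Over all 30372 such pairs of the array the values were 0.217 and 0.0248. These correlations are across pairs of rows measured on the same 9 arrays, and pairs are not independent replicates. The direction of the difference was the same in 73 of the 158 carrier pairs (46.2%), against 50.7% of all pairs. Even where both rows of a pair were called, it was the same in only 172 of 355 pairs over all genes. For the carriers, therefore, only the strength of the difference is given, and no direction, fold change or abundance. For the same reason the colon's own marker genes could not be checked by their level, and each call belongs to a row under that name, so that it is uncertain for a single gene. In a whole organ, fewer cells of a type and less RNA per cell cannot be told apart.

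Promoters of 3 carriers of different transport roles whose rows passed the test are shown for orientation, because an expression array does not measure them. Each window runs from 250 bases before to 50 bases after a RefSeq transcription start (GRCm38.p6) and is read on the strand of the gene. Slc26a3, the apical chloride-bicarbonate exchanger of the colon, lies on the plus strand at chr12:31437969-31438268. Slc16a1, the proton-linked monocarboxylate carrier MCT1, lies on the plus strand at chr3:104638414-104638713. Slc30a4, a zinc exporter, lies on the minus strand at chr2:122702614-122702913. Capitals mark TATAAA, the core of the TATA box, or TGCGCNC, a form of the core of the metal response element, on either strand. Other forms of that core were not searched.
Slc26a3: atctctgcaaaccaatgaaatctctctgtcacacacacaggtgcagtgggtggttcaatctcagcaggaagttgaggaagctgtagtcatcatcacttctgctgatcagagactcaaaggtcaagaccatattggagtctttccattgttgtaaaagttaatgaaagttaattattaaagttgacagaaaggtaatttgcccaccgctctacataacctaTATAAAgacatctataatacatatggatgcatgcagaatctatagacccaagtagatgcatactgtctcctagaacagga
Slc16a1: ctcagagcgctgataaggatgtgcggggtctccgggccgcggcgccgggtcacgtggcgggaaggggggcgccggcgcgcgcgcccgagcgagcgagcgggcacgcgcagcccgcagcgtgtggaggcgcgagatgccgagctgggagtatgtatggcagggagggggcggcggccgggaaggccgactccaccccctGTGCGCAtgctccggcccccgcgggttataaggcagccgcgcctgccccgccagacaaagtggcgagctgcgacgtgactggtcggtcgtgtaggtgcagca
Slc30a4: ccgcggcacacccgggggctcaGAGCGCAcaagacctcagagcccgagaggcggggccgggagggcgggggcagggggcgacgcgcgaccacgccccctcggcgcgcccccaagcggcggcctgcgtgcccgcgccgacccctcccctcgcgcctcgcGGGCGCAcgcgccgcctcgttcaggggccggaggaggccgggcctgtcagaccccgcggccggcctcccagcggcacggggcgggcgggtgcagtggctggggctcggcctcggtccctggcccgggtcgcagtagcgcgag

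The Slc26a3 window held TATAAA 30 bases before the start. The Slc16a1 window held TGCGCNC, this form of the metal response core, 52 bases before the start, and the Slc30a4 window held it at 2 places. Windows were found for 103 of the 138 carrier genes, 138 windows in all. TATAAA occurred in 12.3% of them and in 13.6% of all 32851 windows. TGCGCNC occurred in 17.4% of them and in 15.4% of all windows. In the 12 windows of the 9 genes with a called row, TATAAA occurred in 2 and TGCGCNC in 6, counts from few windows that were not tested. GACCACCCA, the consensus of the Gli factors that Hedgehog signalling activates, was searched on both strands and occurred in 0 of the 138 carrier windows and in 0.253% of all windows. The matches printed do not overlap each other, and a match or its absence says nothing about binding.

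The comparison of mutant with wildtype colons asked which transcripts differed at day 12 after the Hedgehog pathway was to be switched on by loss of Ptch1. Every row was tested on the log2(intensity + 16) scale with limma, and a row was called when its Benjamini-Hochberg adjusted p over all 45037 rows was under 0.05. Of the 244 carrier rows, 17 were called (6.97%), against 5.19% of the rows with 1 symbol and 4.51% of all rows. These 17 rows belonged to 14 genes, 10.1% of the 138, where 8.43% of all genes had at least 1 called row. The carriers as a whole thus lay near the background. Their median percentile of strength was 46.6 (upper quartile 73.4) on a scale that rises with strength, against 52.2 for all rows with 1 symbol. Unadjusted p-values under 0.05 were seen for 47 carrier rows (19.3%), against 21.1% of rows with 1 symbol.

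Calls were unevenly spread over the families. The Slc26 anion exchangers held 7 of the 17 called rows among only 18 rows, which is 38.9% of the family's rows. The 7 rows came from 4 of the 10 Slc26 genes, with 3 from Slc26a2 and 2 from Slc26a3, and 8.43% of all genes had a called row. With rows averaged per gene, 2 of 10 Slc26 genes were called, and 9.38% of the other carrier genes against 6.09% of all genes. The count of called Slc26 rows was 4 without mutant replicate 2, 4 without wildtype replicate 3 and 4 without wildtype replicate 4. It was 2 with array number as a covariate. In the other 226 carrier rows 10 were called, or 4.42%, just under the 5.19% of rows with 1 symbol. Slc26 was set aside because it held the most calls, so the remaining share had to be lower. With only the Slc26a2 rows left out, 14 of 241 carrier rows were called (5.81%). The median percentile was 88.5 for Slc26, 66.9 for Slc12, 63.6 for Slc9, 61.2 for the 5 rows of Slc20 and 56.6 for Slc6. It was 44.0 for Slc22, 43.2 for Slc5, 42.6 for Slc39, 39.4 for Slc16, 33.6 for Slc4, 32.3 for Slc7 and 30.3 for Slc30. These are descriptions of rows on the same arrays, and the families were not tested against each other. The 390 rows of the 196 other Slc genes, outside these families, had 21 called rows (5.38%) and a median percentile of 51.8.

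**Figure D1:**
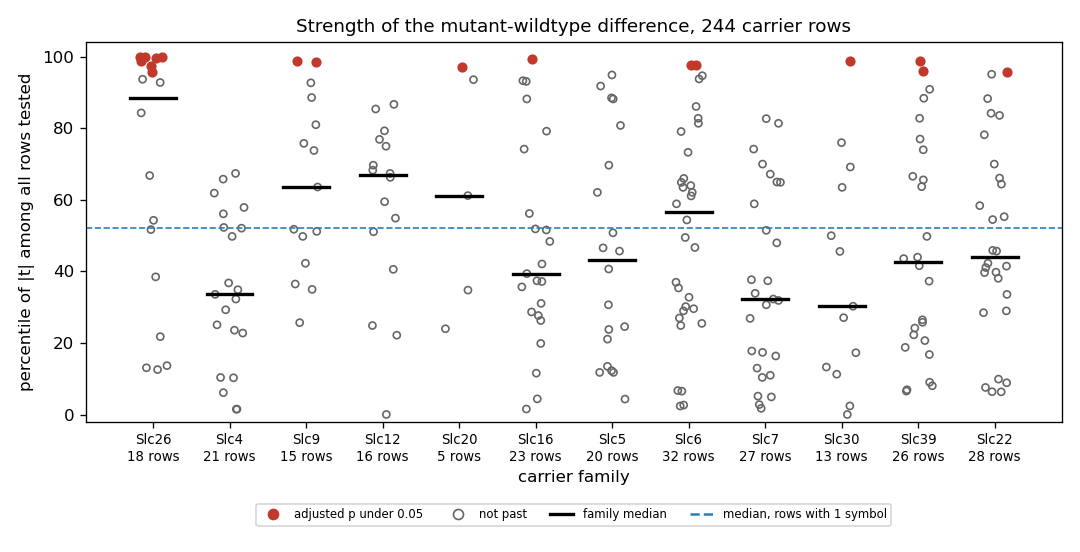
Percentile of the absolute moderated t among all 45037 rows (y axis, no unit) for each of the 244 carrier rows, by family (x axis, with the number of rows). Filled points are the 17 called rows, black bars are family medians and the dashed line is the median of rows with 1 symbol (52.2). The filled points crowd at the top of Slc26, and Slc4, Slc5, Slc7 and Slc12 have no filled point.

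To show the arrays behind each call without a direction or level, each array was placed on a line for each called row, with the wildtype mean at 0 and the mutant mean at 1. Called rows are selected for separated groups, so narrow scatter on this line is a description and not a further test. The groups did not overlap in any of the 17 called rows. Over all carrier rows the groups did not overlap in 28 of 244 (11.5%), against 9.78% of rows with 1 symbol and 8.71% of all rows.

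Slc26a2 encodes the sulfate transporter that feeds the sulfation of mucins and proteoglycans, and it was the carrier with the strongest difference. All 3 of its rows were called. They ranked 5, 6 and 139 among 45037 rows, with absolute t of 14.2, 14.0 and 7.37 and limma adjusted p of 0.00105, 0.00105 and 0.0117. In the row 1443882_at the mutants lay at 1.02, 0.81, 1.02, 1.03 and 1.12 and the wildtypes at 0.07, -0.09, -0.06 and 0.08. The lowest mutant was thus separated from the highest wildtype by 0.72 of the distance between the means. In 1427195_at the mutants lay at 0.89, 0.92, 1.03, 1.07 and 1.09 and the wildtypes at 0.12, -0.01, -0.01 and -0.10, with a gap of 0.77. In 1421145_at the mutants lay between 0.79 and 1.22 and the wildtypes between -0.23 and 0.21. Relative to the distance between the means, the last row had wider scatter in each group (SD 0.21 in mutants and 0.21 in wildtypes) than the first (0.12 and 0.09). The line is scaled by that distance, so its scatter largely restates the absolute t and does not compare the scatter in log2 units.

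The 3 Slc26a2 rows kept their calls when any single array was left out, with adjusted p of at most 0.00921, 0.00921 and 0.0463. The array numbers in the sample titles averaged 4.2 for mutants and 8 for wildtypes, so number and group were partly tied. With array number as a covariate only 30 of 45037 rows (0.0666%) were called, and 2 of them were the Slc26a2 rows 1443882_at and 1427195_at, each at a limma adjusted p of 0.0204. No other carrier row was called in that fit, and the third Slc26a2 row was at 0.119.

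Slc26a11, a chloride and sulfate transporter of lysosomal and plasma membranes, had 1 row, which ranked 20 (absolute t 10.6, limma adjusted p = 0.00383). The mutants lay at 0.89, 1.16, 1.09, 0.94 and 0.92. Among the wildtypes, replicate 1 lay at 0.25 and the other 3 at -0.11, -0.07 and -0.08. Wildtype replicate 1 therefore stood apart from its group, on the side of the mutants, but still 0.64 short of the lowest mutant. The call held without each array in turn (adjusted p at most 0.0245) and was at 0.068 with array number as a covariate.

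Slc26a3 exchanges luminal chloride for bicarbonate at the colonic surface, and its loss causes congenital chloride diarrhoea. It had 4 rows, which ranked 577, 1143, 2837 and 3264, so that all 4 were among the strongest 10% of the array. The first 2 were called (limma adjusted p = 0.0207 and 0.0317) and the others were at 0.0709 and 0.0818. In 1453151_at the mutants lay at 1.16, 1.27, 0.74, 1.26 and 0.57 and the wildtypes at -0.16, 0.23, -0.16 and 0.09. In 1429467_s_at the mutants lay at 0.53, 1.08, 0.87, 1.42 and 1.1 and the wildtypes at -0.14, 0.00, 0.23 and -0.08. Mutant replicate 5 was the nearest mutant to the wildtypes in the first row and mutant replicate 1 in the second. The groups did not overlap in any of the 4 rows. The 2 calls were less steady than those of Slc26a2, held in 6 and 2 of the 9 fits that left out 1 array.

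Slc26a7, an anion exchanger and chloride channel of acid-secreting and thyroid epithelia, had a called row at rank 1882 (limma adjusted p = 0.0472) and another at rank 35200 (0.9). In the called row mutant replicate 5 lay at 0.32 and the other mutants between 0.91 and 1.38, while the wildtypes reached 0.17. That call held in 1 of the 9 fits that left out 1 array. The other Slc26 genes were not called. Slc26a6, an exchanger of chloride, bicarbonate and oxalate, was at a limma adjusted p of 0.206 (rank 7079), and Slc26a4, the iodide and bicarbonate transporter pendrin, at 0.486. Slc26a10 was at 0.638, the 2 rows of Slc26a8 at 0.666 and 0.79, those of the hepatic and renal sulfate transporter Slc26a1 at 0.941 and 0.943, and Slc26a5, the prestin of cochlear hair cells, at 0.946. The family thus divided into 3 genes with all rows near the top, 1 gene with rows far apart and 6 genes in which no row was called. The median gap between rows of 1 gene was 2.51 percentile points over 12 pairs in Slc26, against 22.3 over all 158 carrier pairs. Most of the 12 pairs came from Slc26a2 and Slc26a3, whose rows all lay near the top. The rows lay at percentiles 95.8 and 21.8 for Slc26a7, 51.7 and 38.5 for Slc26a8, and 13.7 and 13.1 for Slc26a1.

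**Figure D2:**
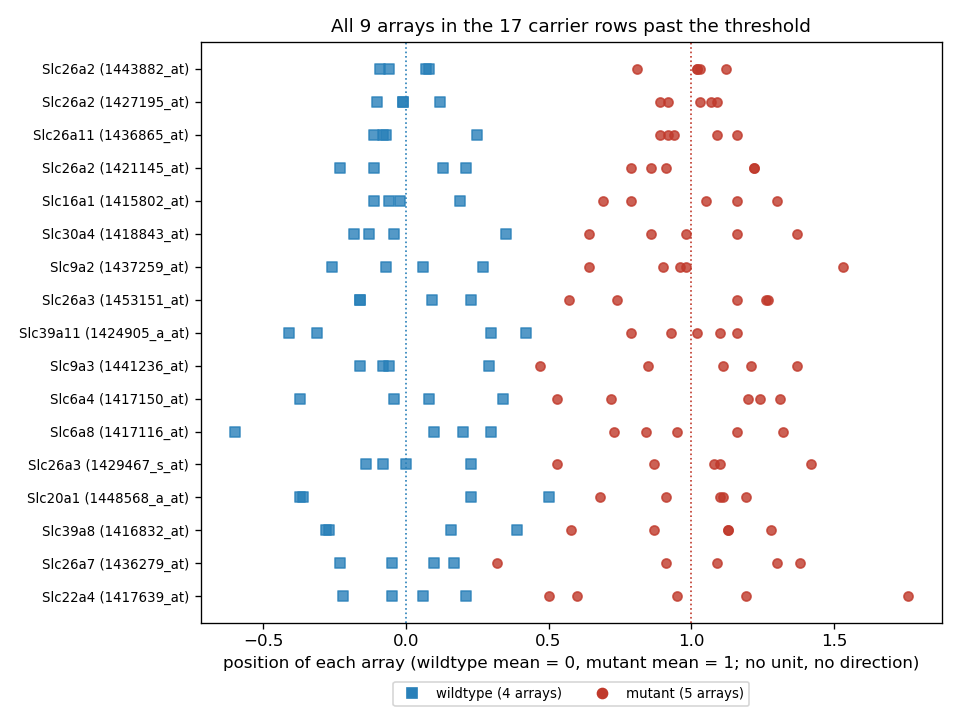
Position of each of the 9 arrays (x axis, no unit, wildtype mean at 0 and mutant mean at 1) in the 17 called carrier rows (y axis, gene and probe set, strongest at the top). Squares are the 4 wildtype and circles the 5 mutant arrays. The groups are widest apart for the Slc26a2 and Slc26a11 rows at the top, and mutant replicate 5 at 0.32 comes near the wildtypes in the Slc26a7 row.

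The Slc4 family carries bicarbonate, in exchange for chloride or together with sodium, and sets cell and luminal pH beside Slc26. None of its 21 rows for 9 genes was called by limma, and 0 were at an unadjusted p under 0.05. The strongest was Slc4a2, the basolateral anion exchanger, at rank 14671 (limma adjusted p = 0.475). The 5 rows of Slc4a4, the sodium-bicarbonate cotransporter that loads base into colonocytes, lay between adjusted p of 0.685 and 0.994.

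Sodium-proton exchangers of the Slc9 family take up sodium in exchange for protons. Of 15 rows for 7 genes 2 were called, 1 each of Slc9a2 and Slc9a3, the apical exchangers NHE2 and NHE3 of the colon. The Slc9a2 row ranked 530 (absolute t 5.82, limma adjusted p = 0.0193). Its mutants lay at 0.90, 0.96, 0.64, 1.53 and 0.98 and its wildtypes at 0.06, 0.27, -0.26 and -0.07. The groups were separate, with mutant replicate 4 far beyond the other mutants. The call was lost in 2 of the 9 fits that left out 1 array, with an adjusted p of up to 0.0641.

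Slc9a3 had a row at rank 635 (absolute t 5.56, limma adjusted p = 0.0225) and another at rank 8545 (0.26). In the called row the mutants lay at 1.37, 0.47, 0.85, 1.21 and 1.11 and the wildtypes at -0.08, -0.16, -0.06 and 0.29. Mutant replicate 2 and wildtype replicate 4 came closest, 0.18 apart. The call held in 7 of the 9 fits that left out 1 array (limma adjusted p up to 0.0707). Among the other exchangers the endosomal Slc9a9 reached 0.0824 in the strongest of its 4 rows, in which the groups did not overlap, and the Golgi exchanger Slc9a8 reached 0.141 in the strongest of 4. Slc9a4 was at 0.665. No Slc9 row lay in the weakest 25% of the array, whereas 61 of all 244 carrier rows did.

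The Slc12 cotransporters move chloride with sodium or potassium and serve chloride secretion and cell volume. Their 16 rows for 8 genes had a median percentile of 66.9, yet 0 were called by limma and 2 were at an unadjusted p under 0.05. These were rows of Slc12a8 (rank 5982, limma adjusted p = 0.166) and of Slc12a1 (rank 6590, 0.187), the loop-diuretic target of the kidney. The 3 rows of Slc12a2, the basolateral cotransporter NKCC1 that loads crypt cells with chloride for secretion, lay between 0.577 and 0.674. Slc12a7, a potassium-chloride cotransporter, had rows at ranks 14285 and 45016. Most of the family thus lay in the middle of the array, without rows near its top.

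Slc20a1 is a sodium-phosphate cotransporter of most cells. Of its 3 rows 1 was called, at rank 1321 (absolute t 4.69, limma adjusted p = 0.0357), another lay at rank 2879 (0.0725) and the third at rank 29349 (0.817). In the called row the mutants lay at 1.11, 1.19, 1.1, 0.68 and 0.91 and the wildtypes at 0.23, 0.50, -0.36 and -0.37. Wildtypes 1 and 2 were on the mutant side of their mean and wildtypes 3 and 4 on the far side. The call held in 3 of the 9 fits that left out 1 array (adjusted p up to 0.105). The 2 rows of Slc20a2 were at adjusted p of 0.556 and 0.886.

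Monocarboxylate carriers of the Slc16 family bring butyrate, lactate and ketone bodies across the membrane, and butyrate is the main fuel of colonocytes. Of 23 rows for 13 genes 1 was called, the Slc16a1 row 1415802_at at rank 204 (absolute t 6.97, limma adjusted p = 0.0124). The mutants lay at 1.05, 1.30, 1.16, 0.69 and 0.79 and the wildtypes at -0.11, 0.19, -0.06 and -0.02. The lowest mutant was 0.50 from the highest wildtype, and the call held without each array in turn (adjusted p at most 0.0489). With array number as a covariate it was at 0.138. The other Slc16a1 row was at rank 9347 (0.29).

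The next monocarboxylate rows were the creatine transporter Slc16a12 (rank 3040, limma adjusted p = 0.0765) and the aromatic amino acid carrier Slc16a10 (rank 3118, 0.0785), whose other 3 rows were at 0.799 or above. Slc16a3, the lactate exporter MCT4, was at 0.909, and the rows of Slc16a4 were at 0.699 and 0.863. Slc16a1 was thus the only gene of the family with a called row.

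The Slc5 family couples sugars, vitamins and short-chain fatty acids to sodium. None of its 20 rows for 11 genes was called by limma, and 4 were at an unadjusted p under 0.05. The nearest was Slc5a6, the carrier of biotin and pantothenate, at rank 2315 (limma adjusted p = 0.0574), in which the groups did not overlap. The 4 rows of Slc5a9, a sodium-coupled mannose and glucose carrier, lay close together, at ranks 3684, 5199, 5303 and 8666 (adjusted p from 0.0933 to 0.265). Slc5a8, the sodium-coupled butyrate carrier of the colon, was at rank 39516 (0.947), and the rows of the glucose carrier Slc5a1 were at 0.546 and 0.883.

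The Slc6 and Slc7 families, which hold amino acid carriers beside carriers of other solutes, gave 2 called rows of 59, both in Slc6. Slc6a4 is the serotonin transporter, which clears serotonin released in the gut wall. Its 1 row ranked 1015 (absolute t 5.03, limma adjusted p = 0.0289), with mutants at 0.53, 1.31, 0.72, 1.24 and 1.20 and wildtypes at 0.08, 0.34, -0.37 and -0.04. Slc6a8 is the creatine transporter, and its called row ranked 1056 (absolute t 4.98, limma adjusted p = 0.0297), with mutants between 0.73 and 1.32. Its wildtypes lay at 0.20, -0.60, 0.10 and 0.30, so that wildtype replicate 2 was on the far side from the mutants. The second Slc6a8 row was at 0.557. These calls held in 4 and 3 of the 9 fits that left out 1 array.

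Below the threshold in Slc6 were the proline carrier Slc6a7 (limma adjusted p = 0.0593, without overlap of the groups) and the taurine carrier Slc6a6 (0.0702 in the strongest of 4 rows, with overlap). The rows of the broad amino acid carrier Slc6a14 ranked 17089 and 42079, and those of the neutral amino acid carrier Slc6a19 were at 0.38 and 0.529. In Slc7, 0 of 27 rows were called by limma and 2 were at an unadjusted p under 0.05. These were both rows of Slc7a7, a light chain for cationic amino acids, at adjusted p of 0.233 and 0.254. Slc7a5, the large neutral amino acid carrier of dividing cells, was at 0.98, Slc7a8 at 0.923, the cystine carrier Slc7a9 at 0.797 and the cystine-glutamate exchanger Slc7a11 at 0.512 and 0.843. The median percentile of Slc7 was 32.3, and 10 of its 27 rows lay in the weakest 25% of the array.

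Zinc carriers gave 3 called rows of 39. Slc30a4 moves zinc out of the cytosol into vesicles or out of the cell. Its 1 row ranked 529 (absolute t 5.82, limma adjusted p = 0.0193), with mutants at 0.98, 0.64, 1.16, 1.37 and 0.86 and wildtypes at 0.35, -0.18, -0.04 and -0.13. Wildtype replicate 1 was again the nearest wildtype to the mutants. Slc39a11, a zinc importer, had 1 row, at rank 599 (absolute t 5.65, limma adjusted p = 0.0213). Its mutants were close together, from 0.79 to 1.16, and its wildtypes at 0.42, 0.30, -0.31 and -0.41 were spread widely (SD 0.42). The calls of Slc30a4 and Slc39a11 held in 6 and 5 of the 9 fits that left out 1 array (limma adjusted p up to 0.0649 and 0.0656).

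Slc39a8, an importer of zinc and manganese, had a called row at rank 1835 (limma adjusted p = 0.0463), with mutants from 0.58 to 1.28 and wildtypes up to 0.39, and a second row at rank 4120 (0.104). Its call held in 1 of the 9 fits that left out 1 array. The other zinc carriers were not called. Slc39a10 reached 0.144 and Slc39a6 0.23, the zinc-regulated exporter Slc30a1 was at 0.449 and 0.529, and the intestinal importers Slc39a4 and Slc39a5 were at 0.905 and 0.926. The 4 rows of Slc39a14 lay between 0.371 and 0.963, and the rows of the manganese exporter Slc30a10 ranked 39936 and 45019. Within the zinc families most rows were thus weaker than the median row of the array.

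The organic ion carriers of the Slc22 family had 1 called row of 28. It was that of Slc22a4, a carrier of ergothioneine, at rank 1960 (absolute t 4.21, limma adjusted p = 0.0489), just inside the threshold. The mutants lay at 1.19, 0.95, 1.76, 0.50 and 0.60 and the wildtypes at -0.05, -0.22, 0.21 and 0.06. Relative to the distance between the means, its mutant scatter was the widest of the 17 rows (SD 0.50), and its absolute t was the smallest. The call held in 1 of the 9 fits that left out 1 array (adjusted p up to 0.118). Slc22a23 followed at 0.0545, without overlap of the groups. The carnitine carrier Slc22a5 was at 0.722 and 0.78, and Slc22a18 at 0.208 and 0.758.

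Carriers known for roles in the colon were drawn from these families as a list of 34, of which 32 had rows. Of their 66 rows 10 were called (15.2%, against 5.19% of rows with 1 symbol), in the 7 genes Slc26a2, Slc26a3, Slc9a2, Slc9a3, Slc16a1, Slc6a8 and Slc20a1. The list was drawn up with earlier results on these arrays known, so its share is a description. The median percentile of the 66 rows was 57.2.

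Of the 8 genes with a called row and at least 2 rows, only Slc26a2 had all rows called, and 6 had 1 called row. In 15 pairs of rows of 1 gene at least 1 row was called, and in 4 of them both were, namely the 3 pairs of Slc26a2 and 1 pair of Slc26a3. This is 26.7% of the 15 pairs, against 12.8% of 2765 pairs over all genes. The rows of these 4 pairs, which come from only 2 genes, had the same direction, and over all genes 172 of 355 such pairs did. Among carrier pairs with both rows at an unadjusted p under 0.05, 11 of 16 had the same direction, against 1273 of 2523 over all genes. The 16 pairs include every pair of Slc26a2 and of Slc26a3, so they are not independent and no direction is read from them.

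**Figure D3:**
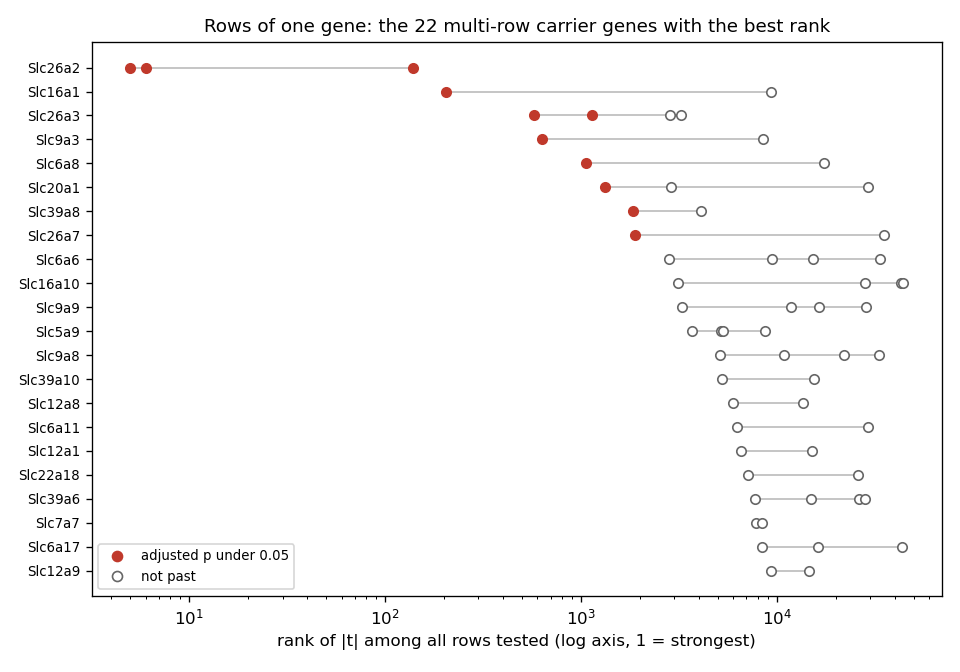
Rank of the absolute moderated t among 45037 rows (x axis, log scale, 1 is the strongest) for every row of the 22 carrier genes with at least 2 rows that have the best ranks (y axis). Filled points are called rows and lines join rows of 1 gene. The rows of Slc26a2 (5, 6 and 139) and of Slc26a3 (577 to 3264) lie together, while those of Slc26a7 (1882 and 35200) lie far apart.

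Genes that work beside the carriers were taken as a list of 43, of which 42 had rows, with channels, pumps, carbonic anhydrases, regulatory kinases, carrier subunits and metallothioneins. Of their 83 rows 7 were called (8.43%, against 5.19% of rows with 1 symbol), in 6 genes, and the median percentile was 60.4, against 52.2. The strongest were the zinc-binding metallothionein Mt2 (rank 260, limma adjusted p = 0.0137), the water channel Aqp8 (rank 322, 0.0155) and the metallothionein Mt1 (rank 327, 0.0155, with a second row at 0.0438). The sodium pump regulators Fxyd4 (0.0204) and Fxyd3 (0.0357) and Slc3a1 (0.0353), the heavy chain that partners the cystine carrier Slc7a9, were also called. Not called were the chloride channel Cftr (0.0913 in its strongest row), Bsg (0.0812), the chaperone of Slc16a1, and Slc3a2 (0.197), the heavy chain of Slc7a5.

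Markers of cell types that a whole colon holds were counted in the same fit, in which 5.19% of rows with 1 symbol were called and 21.1% were at an unadjusted p under 0.05. Colonocyte genes had 3 called rows of 23 (2 of the intestinal transcription factor Cdx2 and 1 of Aqp8) and goblet cell genes 2 of 13 (Spink4 and Agr2). At an unadjusted p under 0.05 were 10 of the 23 and 5 of the 13 rows, and the median percentiles were 70.5 and 70.7. Smooth muscle genes had 0 called rows of 18 by limma (5 at an unadjusted p under 0.05) and a median percentile of 65.9. Enteric nerve and glia genes had 0 of 22 (4, median percentile 51.8) and immune genes 0 of 23 (4, median percentile 34.1). Pancreas genes, a tissue that can be carried along, had 0 of 9 (1, median percentile 45.7). The median percentile of rows with 1 symbol was 52.2. The summed levels of these lists are not given, since row names hardly carried the level. The part of any change in cell makeup in the carrier results was not tested.

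The arrays had median intensities between 53.8 and 54.7. Over the 17 called rows the median position was 0.08 for wildtype replicate 1 (array number 5), 0.00 for replicate 2 (8), -0.06 for replicate 3 (9) and -0.07 for replicate 4 (10). Among mutants it was 1.05, 0.96, 1.02, 1.07 and 0.93 for replicates 1 to 5 (numbers 1, 3, 4, 6 and 7). The mutant nearest to the wildtypes was replicate 4 in 5 rows, replicates 1 and 2 in 4 rows each, replicate 5 in 3 and replicate 3 in 1. The wildtype nearest to the mutants was replicate 2 in 6 rows, replicate 1 in 5 and replicates 3 and 4 in 3 each. No single array was thus the nearest of its group in most rows. Being nearest does not measure an array's weight in the calls.

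The count of called carrier rows moved with the arrays kept. It was 6 without wildtype replicate 3 and 6 without wildtype replicate 4, and 8 without mutant replicate 2 and 8 without mutant replicate 3, against 17 with all arrays. The count of genes also moved, to 9 without mutant replicate 1 against 14. The share of rows with 1 symbol that were called moved with it, to 0.987%, 1.02%, 1.77% and 1.76%, against carrier shares of 2.46%, 2.46%, 3.28% and 3.28%. Called in every one of the 9 fits that left out 1 array were 5 rows, the 3 of Slc26a2 and those of Slc26a11 and Slc16a1. With array number as a covariate 2 carrier rows of 244 were called (0.82%), against 0.0773% of rows with 1 symbol. In all 23 settings compared, the carrier share was above that of rows with 1 symbol, and without the Slc26 rows it was below it in 17 and above it in 5. Leaving out Slc26, the family with the most calls, lowers the share by construction, so the second count is only a description. These settings reuse the same arrays and are not independent.

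**Figure D4:**
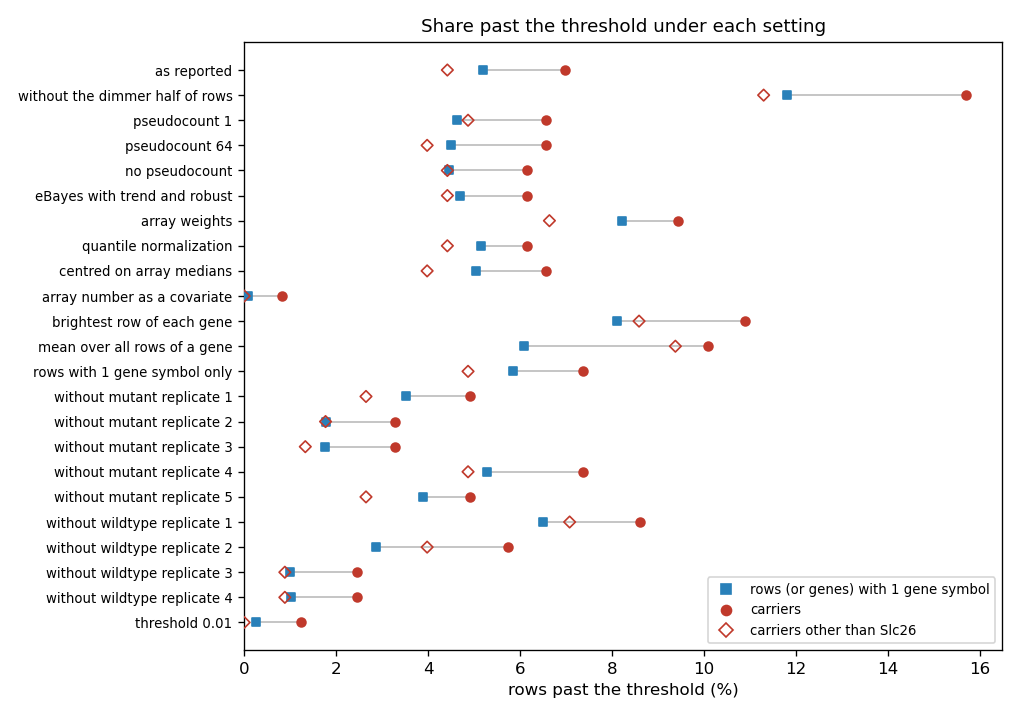
Share of rows past the threshold (x axis, %) for carriers (circles), carriers other than Slc26 (open diamonds) and all rows with 1 gene symbol (squares) under each setting (y axis). Genes take the place of rows where a gene had 1 value. The circles lie to the right of the squares throughout (6.97% against 5.19% as reported), and the diamonds lie mostly at or left of the squares (4.42%). Slc26 was set aside because it held the most calls.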

How the data were processed

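Whole mouse colons were measured on 9 Affymetrix arrays, 5 mutant and 4 wildtype, grouped by the labels. The authors deposited linear intensities of probe sets, and the submitters' processing notes name Affymetrix Expression Console 1.1. How probes were summarised and background removed is not given in the sources used here. Array medians were already level, so no normalization was added. Precision is limited by the number of arrays. Of 45101 rows, 64 controls were left out.

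Rows were tested as log2(intensity + 16) with lmFit and eBayes of limma 3.58.1 (R 4.3.3, two-sided, 7 residual and 2.26 prior degrees of freedom), adjusted by Benjamini-Hochberg over all 45037 rows, threshold 0.05. The script was tested on simulated data. Symbols came from the platform annotation, and all 138 carrier symbols were matched by gene identifier in the RefSeq table. The 2 carrier rows with several symbols were left out. Genes were named when a row was called, when a row was among the 2 strongest of its family, or when on the list of colon carriers. The other carriers named, such as the rest of Slc26 and rows next in rank, were added after their values were seen. The members and lists were chosen with earlier results of these data known. Alternatives covered the filter, pseudocount, variance model, weights, normalization, array number, rows per gene, adjustment, threshold and each array left out.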

Additional observations from a re-analysis of the deposited data

Results flagged for a closer look

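In the Slc26a11 row 1436865_at, wildtype replicate 1 stood apart from the other 3 wildtypes, with a gap of 0.879 of the group's range against Dixon's critical value of 0.829 for 4 samples. This was the only such array among 34 groups examined (17 called rows, mutant and wildtype). Chance flags about 1 in 20 groups. Without wildtype replicate 1 or any other single array the row stayed past the threshold.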

How the results depend on the processing

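The count of 17 called carrier rows stayed within 1.5 times under 16 of 22 alternatives, and the 14 genes under 15. With array number as a covariate 2 rows of 1 gene were called, and at a threshold of 0.01, 3 rows of 2 genes. When each array was left out in turn the counts ranged from 6 to 21 rows and from 4 to 17 genes. The median percentile of 46.6 moved by more than the spread of the fits that left out 1 array (SD 1.52) with array number as a covariate (50.1). It also differed for the brightest row of each gene (44.1), the mean over the rows of a gene (41.4) and rows with 1 symbol only (44.6). Percentiles in those fits were taken among other sets of rows or genes, so these values are not on the scale of 46.6. When each array was left out, the median percentile ranged from 45.4 to 49.5. Averaged over its 2 rows, Slc39a8 lost its call (adjusted p = 0.737) and the sign of the called row, from which no direction is read. Array weights called 23 carrier rows, among them all 17. No paired analysis was possible because the labels give the groups no shared replicate numbers. Calls near the threshold are limited by the number of arrays.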
